A study of Mus musculus with 6 samples.

Results

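The genes described are those of de novo sphingolipid synthesis and the ceramide synthases, 10 in all: Cers1 to Cers6, Sptlc1, Sptlc2, Degs1 and Ormdl3. A probe was taken as belonging to a gene if its RefSeq accession named that gene, with no use of its signal. This gave 12 probes for 9 of the genes, out of 56605 probes and 22911 named genes on the array. Cers1 had no matched probe and is not analysed here. The samples were livers of 6 male mice, 3 with a liver-specific knockout of Elovl6 (LKO) and 3 controls, whose sample names carry the word Flox. Both groups received the high-sucrose diet D11725 during 14 days, and a 4-hour fast preceded the freezing of the livers. Strain, age and the Cre driver behind the deletion are not given in the sources used here. Every liver has its own one-colour Agilent array. All values thus rest on 3 mice a group, and that number limits the precision.

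Sphingolipids are built on a long-chain base. Serine palmitoyltransferase, made of Sptlc1 with Sptlc2 or Sptlc3, joins serine to palmitoyl-CoA, and ORMDL proteins in the endoplasmic reticulum hold it back when ceramide is plentiful. Ceramide synthases then attach an acyl chain whose length depends on the enzyme, and the desaturase Degs1 turns dihydroceramide into ceramide. Elovl6 elongates palmitoyl-CoA to stearoyl-CoA, so it stands between the substrate of the first step and the longer acyl-CoAs that some of the synthases use. Cers5 and Cers6 favour palmitoyl-CoA, Cers1 and Cers4 favour stearoyl-CoA and nearby lengths, Cers2 prefers very long chains and is the main synthase of liver, and Cers3 makes the ultra-long ceramides of skin and testis. The comparison of LKO with control asks here whether the transcripts of these enzymes differ when the liver lacks the elongase.

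All 6 arrays came from 1 slide and 1 scan, with 52.1% to 56.6% of 59305 spots well above background and 0 saturated. Elovl6, the targeted gene, had processed signals between 6364 and 12350 in the controls and between 62.3 and 99.6 in LKO (log2 change -6.51 ± 0.30, SE, limma adjusted p = 0.00279), so every mouse matched its label. All 8 hepatocyte markers, Alb, Ttr and Apoa1 among them, were well above background on every array. Their summed level, in multiples of each array's 75th percentile of signal, was 3920 to 4090 in controls and 3990 to 4120 in LKO. All 10 Kupffer cell and macrophage markers had higher means in LKO, with a median log2 change of 0.21 and a summed level of 109 to 130 against 88.2 to 121 in controls. Of 7 neutrophil markers, 4 were tested and all 4 were higher, with a median log2 change of 1.72, the largest of these lists. The sum over the 6 that had a probe was 4.07 to 17.1 in LKO against 2.06 to 2.96 in controls. Cxcr2 and Ngp were not well above background on any array. All 4 erythroid markers tested had higher means (median log2 change 0.34, sums of 309 to 500 against 280 to 394), and 6 of 7 stellate cell markers had lower means (median -0.055). In each of these lists 0 markers passed an adjusted p of 0.05 (limma). The sums overlapped between the groups except those of the neutrophil markers, and the part of these markers in the values below was not tested. In whole liver, fewer cells of a type and less RNA per cell cannot be told apart.

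Of the 9 genes with a probe, 7 were tested and 0 passed an adjusted p of 0.05 (limma, Benjamini-Hochberg over all 14170 genes tested), against a background of 2 genes called, Elovl6 and Usp17la, or 0.0141%. At an unadjusted p under 0.05 there were 2 members (28.6% of the 7), Ormdl3 and Cers4, against a background of 11.2%. The values of the groups did not overlap for 3 members (42.9%), against 17.3% of all genes tested. These were Ormdl3 and Cers2, lower in LKO (9.21% of all genes), and Cers4, higher in LKO (8.11% of all genes). The median log2 change over the 7 was -0.029, and over all genes it was 0.0031. Whether these shares differ from the background was not tested, and the genes are described 1 by 1.

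**Figure D1:**
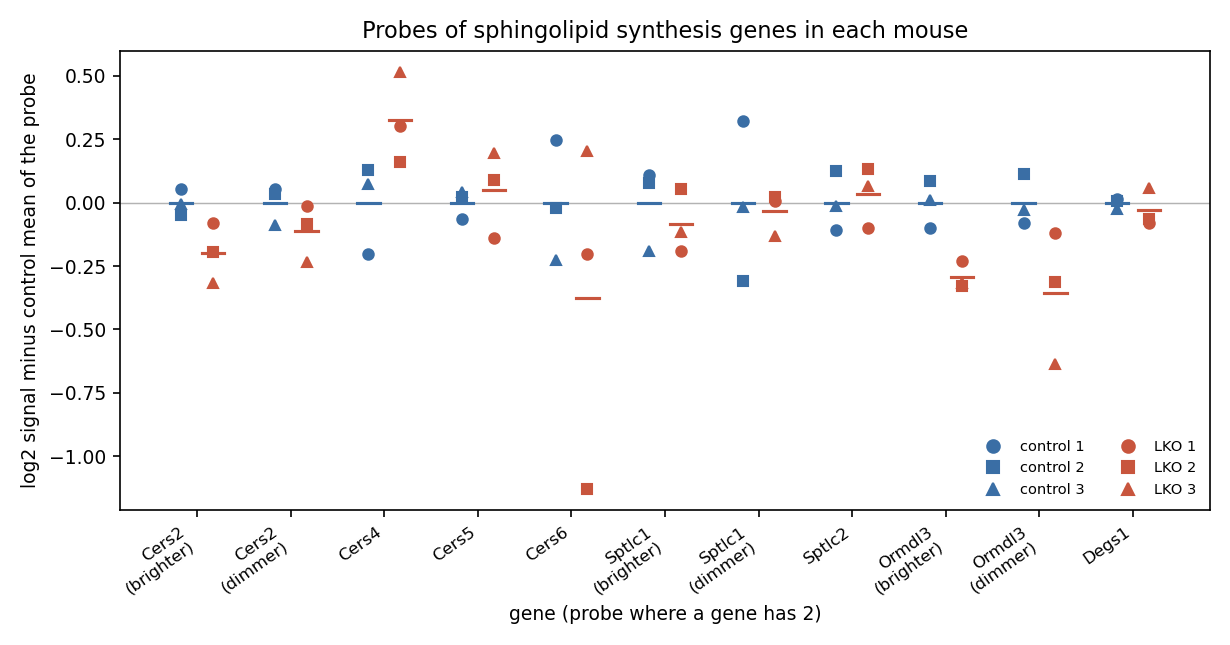
Log2 signal of 11 probes in each mouse, minus the control mean of the same probe (y axis), by gene (x axis), with controls in blue, LKO in red and short lines at the group means; Cers3 is left out because it was below background. Ormdl3 lies lower in all 3 LKO mice on both probes, Cers4 higher in all 3, and Cers6 spreads most.

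The serine palmitoyltransferase subunits Sptlc1 and Sptlc2 had overlapping values in the groups. Sptlc1 gave 1.73, 1.69 and 1.40 times the array's 75th percentile in the controls and 1.40, 1.66 and 1.48 in LKO. The lowest of these, in LKO 1 and control 3, were nearly the same. Its log2 change was -0.08 ± 0.12 (SE, limma adjusted p = 0.835), with a 95% interval from -0.36 to 0.19. The second Sptlc1 probe gave 0.320, 0.207 and 0.253 in controls and 0.257, 0.260 and 0.234 in LKO, a log2 change of -0.034, so the LKO values lay within the control range. For Sptlc2, a partner of Sptlc1 in the enzyme, relative signals were 1.12, 1.32 and 1.20 in controls and 1.13, 1.32 and 1.26 in LKO. The ranges nearly coincided, with a log2 change of 0.03 ± 0.10 (SE, adjusted p = 0.936) and an interval from -0.22 to 0.28. With 3 mice per group, changes of Sptlc1 or Sptlc2 within these intervals are not excluded. The intervals are per gene and not adjusted over all genes, so they do not give the limit of detection.

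Ormdl3, the regulator of serine palmitoyltransferase, had the smallest p of the members and lower values in every LKO mouse. On the brighter probe, A_55_P2059347, the processed signals were 10180, 11140 and 10690 in controls and 8491, 7705 and 8035 in LKO. Relative to the array's 75th percentile they were 34.1, 38.8 and 36.8 in controls and 31.1, 29.1 and 29.4 in LKO, so the highest LKO mouse stayed below the lowest control. Means were 36.6 ± 2.4 and 29.9 ± 1.1 (SD, n = 3 each), a 1.22-fold lower level. The log2 change was -0.29 ± 0.09 (SE, 95% interval -0.50 to -0.08), with an unadjusted p of 0.0129, rank 571 of 14170 in limma's fit, and an adjusted p of 0.318. Permuting the 6 values over the groups gave an exact two-sided p of 0.1, the lowest this design can give.

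The dimmer Ormdl3 probe, A_66_P101901, pointed the same way. Its relative signals were 0.755, 0.863 and 0.783 in controls and 0.735, 0.644 and 0.515 in LKO, again without overlap, although LKO 1 lay close to the lowest control. The log2 change on this probe was -0.36. Both probes kept their sign under quantile normalization, median scaling, normexp and the authors' value table. On the dimmer probe the groups overlapped with normexp (log2 change -0.22) and with the authors' value table (-0.35).

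The desaturase Degs1, which makes the last step to ceramide, was measured with the smallest spread among the controls of any member. Its relative signals were 12.1, 12.1 and 11.8 in controls and 11.4, 11.5 and 12.5 in LKO. Of the LKO mice, 1 and 2 were below the controls and 3 was above them. The log2 change was -0.03 ± 0.08 (SE, adjusted p = 0.923, limma) and its 95% interval ran from -0.22 to 0.16, so larger changes of this transcript lie outside the interval.

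**Figure D2:**
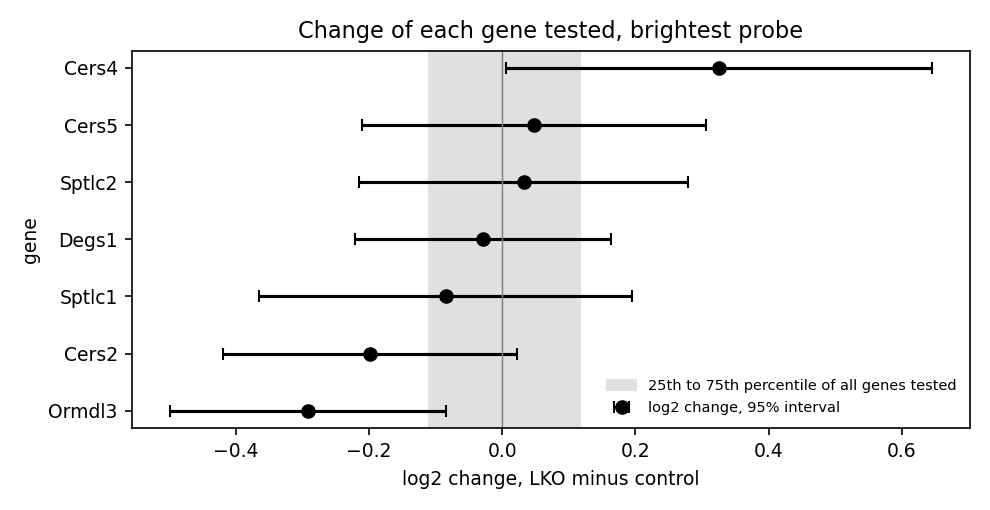
Log2 change of the 7 genes tested (x axis, LKO minus control, brightest probe) with 95% intervals from limma, by gene (y axis); the grey band spans the 25th to 75th percentile of the changes of all genes tested, from -0.11 to 0.12. The intervals of Ormdl3 and Cers4 leave out 0, and those of the other 5 genes include it.

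Among the ceramide synthases, Cers2 was lower and Cers4 higher in all 3 LKO mice, each without passing over all genes. Cers2, the synthase of very-long-chain ceramides, had relative signals of 13.7, 12.8 and 13.1 in controls and 12.5, 11.5 and 10.6 in LKO on its brighter probe, A_51_P517381. LKO 1 was just under the lowest control and LKO 3 was the lowest of all. The means were 13.2 ± 0.5 and 11.5 ± 0.9 (SD, n = 3), 1.15-fold lower, with a log2 change of -0.20 ± 0.09 (SE, 95% interval -0.42 to 0.02, limma adjusted p = 0.496). On its other probe, A_55_P2621535, values of 3.08, 3.04 and 2.80 in controls and 2.94, 2.80 and 2.52 in LKO overlapped (log2 change -0.11). Cers2's brighter probe also overlapped with normexp (log2 change -0.22), and its change was -0.08 when only the mice of the first slide row, all controls and LKO 1, set the contrast.

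Cers4, which prefers stearoyl-CoA and neighbouring lengths, gave relative signals of 0.102, 0.129 and 0.124 in controls and 0.145, 0.132 and 0.168 in LKO. Every LKO value was above every control value, but LKO 2 was above control 2 by little. Mean levels were 0.119 ± 0.014 and 0.148 ± 0.019 (SD, n = 3), 1.25-fold higher in LKO, with a log2 change of 0.32 ± 0.13 (SE, 95% interval 0.0051 to 0.64, limma unadjusted p = 0.0473 and adjusted p = 0.441). Its processed signals, 30.5 to 46.1, were dim. On the same arrays the lowest signals well above background were 14.2 to 19.6. With normexp, another background correction, the log2 change was 0.18. With the authors' value table it was 0.33 and the groups overlapped, and with the slide column in the fit it was 0.085.

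Cers5, a synthase that favours palmitoyl-CoA, gave 0.593, 0.628 and 0.637 in controls and 0.561, 0.659 and 0.709 in LKO. The LKO mice lay on both sides of the control range (log2 change 0.05 ± 0.11, SE, 95% interval -0.21 to 0.31, limma adjusted p = 0.904). Cers6, the other synthase with this preference, passed the background limit in 2 control and 1 LKO mice, and was not tested. Its processed signals were 22.1, 17.7 and 15.5 in controls and 14.8, 7.55 and 19.7 in LKO. Relative signals were 0.0740, 0.0615 and 0.0533 in controls and 0.0541, 0.0285 and 0.0719 in LKO. On this scale LKO 2 was lowest, and LKO 1 and LKO 3 lay within the control range. The log2 change was -0.38, and 0.012 with normexp. Cers3, the synthase of skin and testis, was not well above background on any array, with processed signals of 3.51 to 4.94.

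Because Cers2 and Cers4 use acyl-CoAs of different length, the changes of the synthases were also compared within each mouse. Only the 3 synthases well above background on all 6 arrays entered, giving 3 pairs, and changes rather than levels were compared. The log2 change of Cers2 was below that of Cers4 by -0.52 ± 0.20 (SE), and all 3 LKO mice had a lower Cers2-to-Cers4 difference than every control. The exact two-sided permutation test gave p = 0.1, the smallest possible, and 0.3 after Benjamini-Hochberg adjustment over the 3 pairs. On its brighter probe Cers2 was lower, and Cers4 was higher, in LKO, each without overlap. The separation of the pair and its p of 0.1 were thus fixed by the single genes and add nothing to them. With the dimmer Cers2 probe, an alternative added after its values were seen, the difference was -0.44, again without overlap. The same Cers4 values, separated on their own, enter this difference, while the dimmer Cers2 probe alone overlapped (log2 change -0.11). For Cers2 against Cers5 the difference was -0.25 ± 0.18 (exact p = 0.3), and for Cers4 against Cers5 it was 0.28 ± 0.13 (exact p = 0.2), with 2 of 3 LKO mice outside the control range in each. Cers2 minus Cers5 was -0.11 without LKO 3, -0.40 without LKO 1 and 0.059 with the slide row in the fit, and Cers4 minus Cers5 was 0.12 with normexp, 0.44 with the slide row and 0.037 with the slide column. No pair passed, which with 3 mice per group no pair could.

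**Figure D3:**
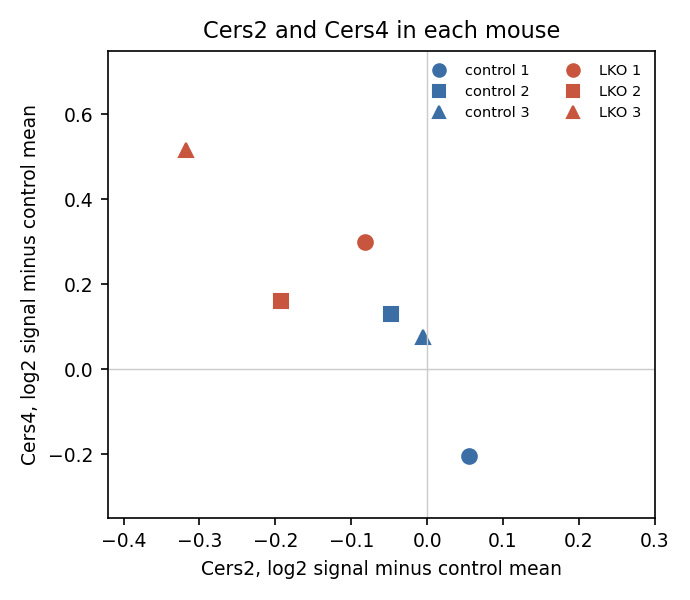
Cers2 (x axis, brighter probe) against Cers4 (y axis), each as log2 signal minus the control mean, 1 point per mouse, controls blue and LKO red. The LKO mice lie to the left of and above the controls, and LKO 3 lies farthest out for both genes.

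The upstream sequences of Ormdl3, Cers2 and Cers4 are shown because these were the members whose groups did not overlap. They are the 250 bases before the annotated starts from RefSeq (GRCm38.p6), 5′ to 3′ on the gene's strand, and RefSeq lists 2 starts for Cers2. Capitals mark 3 motifs on either strand: the E-box CACGTG, the GC box GGGCGG and the NF-Y box CCAAT. No match overlapped another in these windows.
Ormdl3, chr11:98587246-98587495, minus strand: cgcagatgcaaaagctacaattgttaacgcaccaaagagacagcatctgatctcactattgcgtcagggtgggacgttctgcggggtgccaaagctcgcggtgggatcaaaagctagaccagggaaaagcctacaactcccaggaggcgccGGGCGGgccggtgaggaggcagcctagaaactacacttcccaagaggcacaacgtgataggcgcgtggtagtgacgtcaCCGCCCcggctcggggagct
Cers2, first start, chr3:95314940-95315189, plus strand: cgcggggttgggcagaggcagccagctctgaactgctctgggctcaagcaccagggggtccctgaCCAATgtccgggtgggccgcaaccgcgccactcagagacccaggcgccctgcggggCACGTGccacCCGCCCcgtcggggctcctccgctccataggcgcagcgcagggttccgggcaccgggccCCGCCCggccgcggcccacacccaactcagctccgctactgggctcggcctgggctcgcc
Cers2, second start, chr3:95318580-95318829, plus strand: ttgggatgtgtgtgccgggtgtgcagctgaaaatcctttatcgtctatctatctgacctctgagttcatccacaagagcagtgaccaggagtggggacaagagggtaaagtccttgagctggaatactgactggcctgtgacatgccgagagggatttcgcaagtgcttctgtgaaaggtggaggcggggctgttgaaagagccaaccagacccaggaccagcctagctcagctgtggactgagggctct
Cers4, chr8:4493155-4493404, plus strand: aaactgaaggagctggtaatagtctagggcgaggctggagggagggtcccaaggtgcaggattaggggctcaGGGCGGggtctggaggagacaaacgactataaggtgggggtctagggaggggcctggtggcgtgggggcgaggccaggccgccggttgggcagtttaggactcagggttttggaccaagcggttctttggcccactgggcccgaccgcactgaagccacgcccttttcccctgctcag
Ormdl3 held 2 GC boxes, Cers4 held 1, and the first start of Cers2 held 2 with 1 E-box and 1 NF-Y box, while its second start held none of the 3 motifs. Over the 11 windows of all 10 genes, a GC box stood in 7, an NF-Y box in 4 and an E-box in 3. Of 32851 RefSeq windows of the same length, 32.7% held a GC box, 33.8% an NF-Y box and 6.02% an E-box. The windows of the 10 genes held 49.6% to 74.8% G and C, against a median of 52.4% over all windows. The shares were not adjusted for this, and whether they differ from the background was not tested. Ormdl3 and Cers4, 1 lower and 1 higher in LKO, thus both held GC boxes, and the matches are given as a description only.

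Around these members, 54 other sphingolipid genes were listed by role, chosen like the members with earlier results of these data known. Of them 42 were tested, 23 with lower and 19 with higher means in LKO, and 0 passed an adjusted p of 0.05 (limma). At an unadjusted p under 0.05 (limma) there were 2 of the 42, Rtn4 lower and S1pr5 higher, against 11.2% of all genes tested. The groups did not overlap for 5 of the 42 (11.9%), against 17.3% of all genes, and the median log2 change was -0.0066. Of all genes tested, 49.2% had lower means in LKO. Whether the directions within any role below depart from this was not tested.

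Of the 5 other genes of serine palmitoyltransferase and its regulators that were tested, 2 were lower and 3 higher. Rtn4, whose Nogo-B product restrains the enzyme, had relative signals of 7.13, 7.65 and 7.09 in controls and 5.83, 5.71 and 6.87 in LKO. Its groups did not overlap (log2 change -0.25 ± 0.10, SE, adjusted p = 0.435). The groups overlapped for both paralogues of Ormdl3. Ormdl1 gave 9.85, 8.75 and 9.39 in controls and 9.27, 8.72 and 7.82 in LKO, a log2 change of -0.12 ± 0.10 (SE). Ormdl2 differed by 0.06 ± 0.10 (SE) on the log2 scale, and whether the ORMDL genes differ from each other was not tested. Sptlc3, the alternative to Sptlc2 in the enzyme, had a log2 change of 0.02 ± 0.09 (SE). The small subunit Sptssa gave 3.86, 4.09 and 4.13 in controls and 4.20, 4.25 and 4.40 in LKO, higher in every LKO mouse by a log2 change of 0.09 ± 0.08 (SE). Kdsr, which reduces the first product of the pathway, was at -0.30 ± 0.18 with overlapping groups, and Degs2, the hydroxylating relative of Degs1, at 0.03 ± 0.10 (SE).

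Of the genes that convert ceramide onward, release it from sphingomyelin or break it down, Smpd1 alone had groups that did not overlap. The transfer protein Cert1 was at -0.12 ± 0.09 and the ceramide kinase Cerk at 0.19 ± 0.15 (log2 change, SE), with 4 of 6 genes of this role lower. In glycosphingolipid metabolism 5 of 6 genes were higher (median log2 change 0.075), among them the glucosylceramide synthase Ugcg at 0.21 ± 0.11. Of the sphingomyelinase genes, 3 were lower and 3 higher. Smpd1, the acid enzyme, gave 17.1, 17.8 and 18.2 in controls and 18.6, 18.4 and 18.8 in LKO, without overlap at a log2 change of 0.07 ± 0.08 (SE), and Smpd4 was at -0.13 ± 0.11. Of the ceramidase genes 5 of 6 were lower (median log2 change -0.12). They include the adiponectin receptor Adipor2, listed for its ceramidase activity, at -0.28 ± 0.15, and the acid ceramidase Asah1 at -0.14 ± 0.10. None of these roles had a member with an unadjusted p under 0.05 in limma's fit, and none passed.

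In the sphingosine 1-phosphate role, 7 of 11 genes were lower and 4 higher. The receptor S1pr5, found mainly on natural killer cells and some monocytes in blood and spleen, gave 0.338, 0.511 and 0.591 in controls and 0.623, 0.814 and 0.937 in LKO. All LKO mice were above all controls, 1.67-fold higher on average (log2 change 0.74 ± 0.24, SE, limma unadjusted p = 0.0186, adjusted p = 0.348). Beside it, the 7 lymphocyte markers summed to 4.78 to 5.24 in controls and 5 to 5.96 in LKO, and of the 5 tested 3 were lower and 2 higher. Their part in the S1pr5 value was not tested. Aldh3a2, the fatty aldehyde dehydrogenase at the end of the breakdown of sphingosine 1-phosphate, was at -0.37 ± 0.19 (SE) with overlapping groups.

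**Figure D4:**
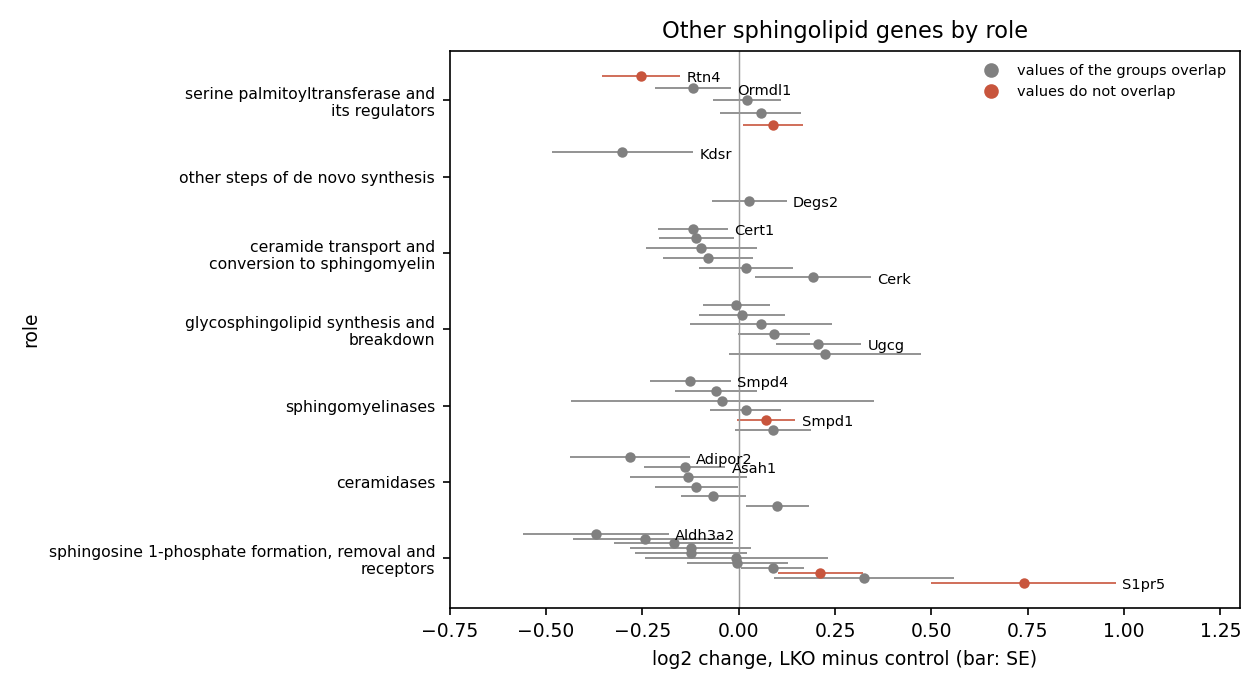
Log2 change of the 42 other sphingolipid genes tested (x axis, LKO minus control, bars are SE) by role (y axis); red points are genes whose values do not overlap between the groups, and labels mark genes with the smallest p of each role. S1pr5 lies farthest from 0 at 0.74, and Aldh3a2, at -0.37, farthest on the lower side.

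The genes whose pattern over the 6 arrays came closest to Ormdl3 were Tmem151a, Nelfe and Ppp1r14c, with root mean square distances of 0.079, 0.11 and 0.12 in units of each gene's SD. Their log2 changes were -0.25 ± 0.08, -0.23 ± 0.08 and -0.38 ± 0.09 (SE) and 0 of them passed. Over 6 arrays and 14170 genes such closeness is a description of these arrays only.

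**Figure D5:**
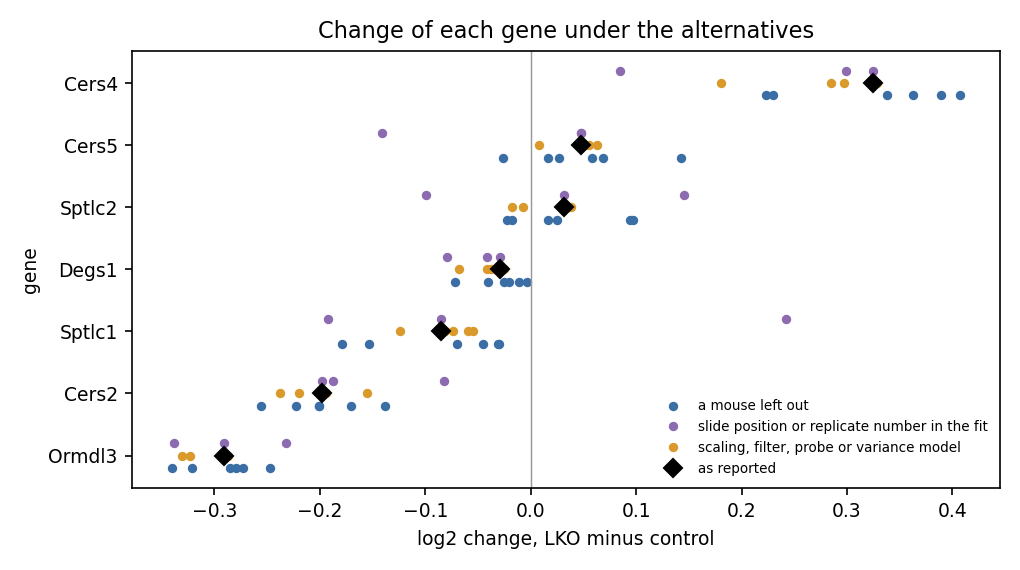
Log2 change of each gene tested (x axis) as reported (black diamonds) and under the alternatives (coloured points), by gene (y axis). Ormdl3, Cers2 and Degs1 stay below 0 and Cers4 above 0 in every alternative shown, while Cers5, Sptlc1 and Sptlc2 cross 0 in at least 1.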

How the data were processed

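Per the labels' protocols, 0.1 µg of RNA was turned into Cy3-labelled cRNA. The deposited files come from Agilent Feature Extraction 11.5.1.1, per the submitters' processing notes. Per the file headers, this software corrected the deposited gProcessedSignal intensity for background. The deposited median signals are raw intensities, and the deposited quality flags are other values. The authors' value table is this intensity times a constant per array (2.08 to 2.48), with no source here for the choice of constants. It is linear, uncentred and in the direction of the signal, with column medians of 55.3 to 63.7.

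Values are processed signals divided by the array's 75th percentile (265 to 298 units), on the log2 scale, without control spots and without the 64 to 111 outlier spots per array. Accessions were named through a RefSeq table of GRCm38.p6, which named 32994 of 56605 probes (58.3%), 0 with several symbols. The brightest probe stood for a gene, and a gene was tested if that probe exceeded background, by its flag, in all 3 mice of a group, which kept 14170 genes. The groups were compared by limma 3.58.1 (lmFit, eBayes; R 4.3.3), two-sided, with Benjamini-Hochberg adjustment at 0.05. The fit was tested on simulated data. Normexp (offset 50) used the median signal, since the files carry no mean foreground signal. Other alternatives were quantile and median scaling, the authors' value table, other filters, the mean of a gene's probes, trend and robust eBayes, slide position, the replicate block and leaving out each mouse. The sample names number the mice 1 to 3 in both groups, and the numbers were not taken as pairs. Members and lists were chosen with earlier results of these data known. All members are named. Of the other sphingolipid genes, those past the threshold were to be named, otherwise the 2 with the smallest p per role (1 such gene is not reported here), and Ormdl2, Sptlc3 and Sptssa were added after their values were seen.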

Additional observations from a re-analysis of the deposited data

How the results depend on the processing

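Counts and log2 changes were recomputed under 17 alternatives. The members and the other sphingolipid genes had 0 past the threshold in all of them. Ormdl3, Cers2, Cers4 and Degs1 kept their direction in every one, Ormdl3 between -0.34 and -0.23 with a smallest adjusted p of 0.200 (limma). The count over all genes, 2 as reported, was 16 with normexp, 13 with trend and robust eBayes, 1 without a filter on dim probes, 1 with probes well above background on all arrays, 1 with the slide row as a covariate, and 0 with the slide column (925 at an unadjusted p under 0.05, limma). It ranged from 1 to 15 when a mouse was left out, with 15 without LKO 1, 4 without control 1, and 1 without control 2, control 3 or LKO 3. The cause was not tested.

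Sptlc2 changed sign with median scaling (-0.0076), normexp (-0.017) and the slide row (-0.099), and ranged from -0.023 to 0.097 with a mouse left out (below 0 without control 1 or LKO 2). Cers5 was at -0.14 with the slide row and between -0.026 and 0.14 with a mouse left out (below 0 without LKO 3), and Sptlc1 was at 0.24 with the slide column. With a mouse left out, Sptlc1 ranged from -0.18 (without control 3) to -0.030 (without control 1), and Degs1 from -0.072 (without LKO 3) to -0.0037 (without LKO 1). Sptlc1 also moved by over 1.5 times without control 2, LKO 1 or LKO 2, and Degs1 without LKO 2. Cers2 minus Cers5 was at 0.059 with the slide row. The cause was not tested. The slide row leaves LKO 1 against the controls, and the slide column leaves LKO 2 against control 3. Cers2 minus Cers4 was -0.27 with the slide column.

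With the replicate block the count over all genes was 3 and the members' 0. Mice with the same number had deviations that correlated at 0.045, -0.055 and -0.070. No LKO mouse correlated best with the control of its own number. LKO 1 did so with control 3 (0.055), LKO 2 with control 1 (0.031) and LKO 3 with control 2 (0.163). Changes of dim probes such as Cers4 and Cers6 are limited by their signal over background.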
